A study of Danio rerio with 4 samples.

Results

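The 10 genes of the circadian clock and of melatonin synthesis described here were measured in whole zebrafish embryos: the period repressors *per1b*, *per2* and *per3*, the activator *clocka*, the Dec repressors *bhlhe40* and *bhlhe41*, the Rev-erb nuclear receptors *nr1d1* and *nr1d2a*, and the melatonin enzymes *aanat1* and *aanat2*. Every noncontrol probe whose RefSeq accession belongs to one of these 10 genes was taken, which gave 13 of the 43603 noncontrol probes of the array. Of the 13 probes 7 passed the detection filter, 1 each for *per1b*, *per2*, *per3*, *bhlhe40*, *bhlhe41*, *nr1d2a* and *aanat1*, among 28320 probes that passed in all. The other 6 probes, which include every probe of *clocka*, *nr1d1* and *aanat2*, were left out of the tests.

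In the vertebrate clock, Clock and Bmal proteins switch on genes that carry E-boxes, among them the period and cryptochrome genes, whose proteins then repress Clock and Bmal. Rev-erb and Ror receptors act on the bmal genes, Dec proteins compete at E-boxes, and light induces some of these genes directly in fish cells. The pineal gland of fish turns serotonin into melatonin at night, and Aanat enzymes carry out the acetylation step, with *aanat2* known as the pineal form and *aanat1* as the retinal form.

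The embryos were either wild type (the group labelled as control) or had received 2 to 3 nl of the morpholino named MO-Bad, directed at the Bad gene of the Bcl-2 family, at the 1-cell stage. Each group was a pool of 200 embryos aged 12 or 24 hours post fertilization (hpf), and each of 4 arrays carried a morphant RNA in Cy5 and a wild-type RNA in Cy3, so that 2 arrays stood for each age. The labels call the 2 arrays of an age biological replicates. The fish facility kept 14 h of light and 10 h of dark at 28 °C, and the labels give neither the clock time of collection nor the light that the embryos themselves received. Age, clock time and time since first light therefore cannot be told apart here. No dye swap and no control morpholino are named, so knockdown, injection and dye cannot be told apart in a ratio of morphant over wild type. A whole embryo was measured, so fewer cells of a type and less RNA per cell cannot be told apart.

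The median spot intensity per array was 52 to 76 in Cy3 and 88.5 to 136 in Cy5, and between 55.9% and 64.9% of probes were well above background in a channel. Log2 ratios of replicate arrays correlated over probes at 0.73 (12 hpf) and 0.70 (24 hpf), against 0.31 to 0.36 between ages. The Bad transcript itself was read by 1 probe of *badb*, and no probe of *bada* was found by accession. Its morphant over wild-type log2 values were −0.30 and −0.20 at 12 hpf, and −0.42 and −0.20 at 24 hpf, with limma adjusted p-values of 0.0357 and 0.016. Leaving out either 12 hpf array, or 24 hpf replicate 1, ended that call. The *badb* call was also lost at both ages with an offset of 10 (log2 −0.27 at 12 hpf and −0.33 at 24 hpf). Dye-corrected values from the scanner software (−0.22 and −0.30) and the authors' value table gave no call either. Nor did background-subtracted signals with loess. Median centring gave 0.14 and −0.02, neither called. The call stayed with no background subtraction, with robust moderation and with the replicate block. A transcript level does not measure the protein that a morpholino blocks.

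The clock genes *per1b*, *bhlhe40* and *bhlhe41* moved far with age in wild-type embryos. From 12 to 24 hpf *per1b* rose 18.2-fold and *bhlhe40* rose 6.67-fold, while *bhlhe41* fell 4.34-fold. Smaller changes that passed the test were the fall of *per2* and the rise of *aanat1*, and *per3* did not pass. In all, 4 of the 7 tested probes were higher, 2 lower and 1 uncalled at a limma adjusted p under 0.05, where 68.8% of all tested probes were called (29.3% higher and 39.5% lower), so most probes of the array were called in this comparison. Among the 4 higher probes is that of *nr1d2a*, which entered the tests through the morphants at 24 hpf alone, so its call supports nothing on age. The median log2 difference was 0.29 over the 7 probes and −0.07 over all genes. The 0.29 is the value of that *nr1d2a* probe, so it supports nothing on age either.

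*per1b*, a period repressor whose transcript cycles in fish, had the largest difference of the 7. Its normalized log2 level in wild type was 7.85 and 7.86 at 12 hpf and 12.03 and 12.06 at 24 hpf. The groups lay far apart and did not overlap. With 2 arrays per age a lack of overlap alone is weak, and its share over all probes was not counted. The scanner's spot intensity before normalization was 120 and 138 at 12 hpf and 3076.5 and 2767 at 24 hpf, over a local background of 30 to 35. The log2 difference was 4.19 (SE 0.08, 95% interval 4.004 to 4.37, n = 2 arrays per age), with a limma adjusted p of 2.33e-07, and it was the 248th highest of the 28320 probes. A second *per1b* probe did not show this rise: its Cy3 spots were between 41 and 53 on all 4 arrays, over a background of 30 to 34, and none was well above background. The probes of *per1b* therefore disagree, and the value rests on 1 of them.

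*bhlhe40* encodes Dec1, a basic helix-loop-helix repressor at E-boxes. Its wild-type log2 level was 9.75 and 9.63 at 12 hpf and 12.43 on both arrays at 24 hpf, again without overlap. The log2 difference was 2.74 (95% interval 2.54 to 2.94) with a limma adjusted p of 1.26e-06. *bhlhe41*, which encodes the related repressor Dec2, went the other way: its level was 9.34 and 9.36 at 12 hpf and 7.25 and 7.22 at 24 hpf. Its log2 difference was −2.12 (95% interval −2.30 to −1.93) with a limma adjusted p of 2.51e-06. Both older values of *bhlhe40* were higher than both younger ones, and both older values of *bhlhe41* were lower. With 2 arrays per age such an order alone is weak, and its share over all probes was not counted.

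*per2*, which light induces in fish, had wild-type log2 levels of 7.67 and 7.52 at 12 hpf and 7.14 and 7.15 at 24 hpf. The fall was 0.45 on the log2 scale (adjusted p = 0.00399, limma), or 1.36-fold. Before normalization its background-subtracted Cy3 signals were 70.9 and 65.9 at 12 hpf and 63.2 and 67.5 at 24 hpf, which overlapped, while the median Cy3 spot of the array was 52 and 59 and then 76 and 73. The fall is one relative to the other probes, seen after scaling between arrays. *per3*, the remaining period gene, had levels of 7.30 and 7.02 at 12 hpf and 7.13 and 7.06 at 24 hpf. These groups overlapped, and the difference was −0.06 with a 95% interval of −0.33 to 0.20 (adjusted p = 0.64, limma).

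*aanat1* had wild-type log2 levels of 6.65 and 6.48 at 12 hpf and 6.92 and 6.89 at 24 hpf, with the older embryos higher on both arrays. The log2 difference was 0.34 (95% interval 0.13 to 0.56) with a limma adjusted p of 0.0137, a 1.27-fold rise. At 12 hpf the wild-type spot was well above background on 1 of 2 arrays, replicate 1. This probe was dim, with Cy3 spots of 44.5 and 41 at 12 hpf and 86.5 and 81.5 at 24 hpf, and the offset added before the log compresses such a fold: the log2 rise was 0.61 with an offset of 10 and 1.91 on the scanner software's processed signals. The call was lost without either 24 hpf array, at 0.32 (adjusted p = 0.0691, limma) without replicate 1 and 0.36 (adjusted p = 0.0514, limma) without replicate 2.

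*nr1d2a*, a Rev-erb receptor that represses genes with Ror response elements, was read by a dim probe with wild-type log2 levels of 6.21 and 6.03 at 12 hpf and 6.46 and 6.36 at 24 hpf. It was not well above background in wild type at 12 hpf and was so on 1 of 2 arrays at 24 hpf, which gives a bound of at least 1.13-fold at 24 over 12 hpf. The probe was well above background on both arrays of a group in the morphants at 24 hpf alone and entered the tests through them, so the difference with age is a description with no test. The background-subtracted Cy3 signal was 14.7 and 9.94 at 24 hpf. The second *nr1d2a* probe was not well above background in any sample.

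**Figure D1:**
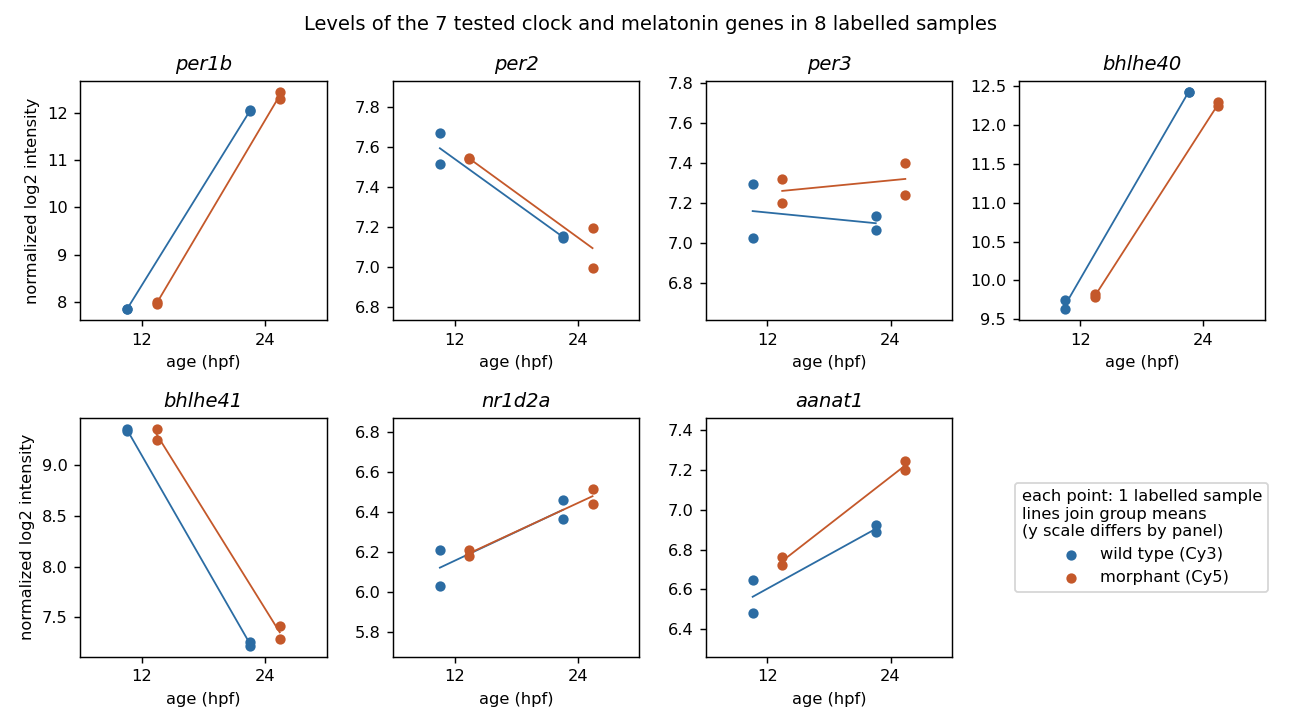
Normalized log2 intensity (y axes, scaled per panel) of the 7 tested genes at 12 and 24 hpf (x axes). Blue points are the wild-type and orange points the morphant samples, 2 per group, and lines join group means. *per1b* and *bhlhe40* stood higher and *bhlhe41* and *per2* lower at 24 hpf in both groups.

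In the morphants, measured in the other dye, *per1b* and *bhlhe40* also rose and *bhlhe41* also fell with age. The morphant and the wild-type comparison share their arrays, so their values are set side by side and not counted as separate evidence. In the morphants 4 of the 7 probes were higher, again counting *nr1d2a*, with 2 lower and 1 uncalled, where 71.8% of all tested probes were called (29.7% higher, 42.1% lower). *per1b* had morphant log2 levels of 7.96 and 8.001 at 12 hpf and 12.29 and 12.44 at 24 hpf. It rose by 4.38 (20.8-fold, limma adjusted p 2.36e-08), where wild type had 4.19. The second *per1b* probe did not show this rise in the morphants either. Its Cy5 spots were 60 to 86 over a background of 46 to 55, and 1 of 4 was well above background. *bhlhe40* had levels of 9.82 and 9.78 and then 12.25 and 12.29. It rose by 2.47 (5.54-fold), where wild type had 2.74. *bhlhe41* had levels of 9.36 and 9.25 and then 7.29 and 7.42. It fell by 1.95 (3.87-fold), where wild type fell by 2.12. None of these groups overlapped between the ages, which is weak with 2 arrays per age, and the share of all probes without overlap was not counted.

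*per2* fell by 0.45 in the morphants, from 7.54 on both arrays to 6.99 and 7.19. *aanat1* rose by 0.48 (limma adjusted p 0.000673), from 6.76 and 6.72 to 7.24 and 7.20. *nr1d2a* had morphant levels of 6.18 and 6.21 at 12 hpf and 6.52 and 6.44 at 24 hpf, a measured 1.22-fold difference. That fold is a description with no test and no bound, since the older group let the probe into the tests. At 12 hpf the probe was not well above background in the morphants. *per3* differed by 0.06 (adjusted p = 0.56, limma), with levels of 7.32 and 7.20 at 12 hpf and 7.24 and 7.40 at 24 hpf.

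**Figure D2:**
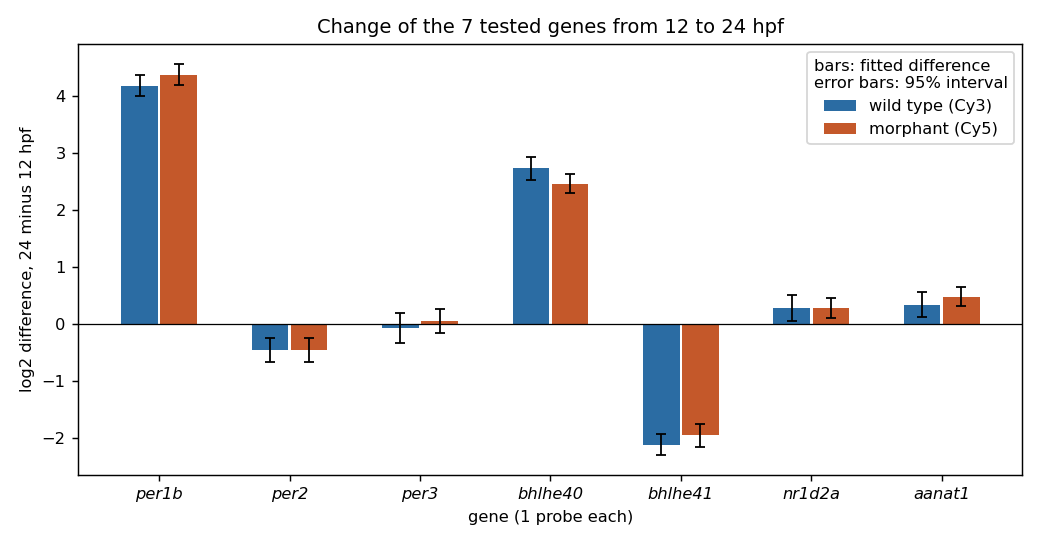
Fitted log2 difference between 24 and 12 hpf (y axis) for the 7 tested genes (x axis), in wild type (blue) and in morphants (orange). Bars are the fitted differences and error bars the 95% intervals. *per1b* rose by 4.19 and 4.38, *bhlhe40* by 2.74 and 2.47, and *bhlhe41* fell by 2.12 and fell by 1.95.

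The next comparison asks whether embryos injected with MO-Bad differed from wild type at one age. At 24 hpf *aanat1* and *per1b* were higher in the morphants, 1.247-fold and 1.244-fold in intensity, and the other 5 tested probes did not pass the test. So 2 of 7 probes were called, both higher, where 21.1% of all tested probes were called (10.2% higher and 10.9% lower). At 12 hpf 0 of the 7 were called by limma after adjustment, where 21.6% of all tested probes were called (12.2% higher, 9.35% lower). Without adjustment 1 of the 7, *aanat1*, had a limma p under 0.05 at 12 hpf, where 9995 of the 28320 tested probes did. At 24 hpf 4 of the 7 did so without adjustment, where 9984 of the 28320 did. The 7 count *nr1d2a*, which entered the tests through the morphants at 24 hpf alone, so its ratio is a description with no test. The median log2 ratio of the 7 probes was 0.10 at 12 hpf and 0.12 at 24 hpf, beside 0.00 for all genes at both ages.

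*aanat1* had log2 ratios of morphant over wild type of 0.12 and 0.24 at 12 hpf and 0.32 and 0.31 at 24 hpf. All 4 arrays were above 0. The order of the ages turned with the processing: the scanner software's dye-normalized log2 ratios were 0.64 and 1.33 at 12 hpf and 0.55 and 0.38 at 24 hpf. The mean was 0.18 ± 0.09 (SD, n = 2) at 12 hpf, with a 95% interval of 0.03 to 0.32 (adjusted p = 0.078, limma), and 0.32 ± 0.01 (SD, n = 2) at 24 hpf, with an interval of 0.17 to 0.46 (adjusted p = 0.00879, limma). The spots were 88 and 78 in Cy5 against 44.5 and 41 in Cy3 at 12 hpf, and 207 and 193.5 against 86.5 and 81.5 at 24 hpf, before any correction for the dyes. With an offset of 10 or with no background subtraction *aanat1* was called at 12 hpf too (0.35 and 0.28, adjusted p = 0.0411 and 0.0303, limma). Its 12 hpf value was 0.98 on the processed signals and in the authors' value table and 1.04 on background-subtracted signals with loess, none of which passed (adjusted p = 0.0582, 0.058 and 0.0578, limma). The 24 hpf call was lost without either 24 hpf array, at adjusted p-values of 0.0768 and 0.0684.

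*per1b* had ratios of 0.10 and 0.14 at 12 hpf and 0.26 and 0.38 at 24 hpf, all above 0 and higher at 24 hpf. The mean was 0.12 ± 0.03 (SD, n = 2) at 12 hpf (95% interval −0.03 to 0.27, adjusted p = 0.22, limma) and 0.32 ± 0.08 (SD, n = 2) at 24 hpf (95% interval 0.17 to 0.46, adjusted p = 0.00925, limma). At 24 hpf its spots were bright, 8252 and 8860 in Cy5 against 3076.5 and 2767 in Cy3. Without 24 hpf replicate 2 the ratio was 0.26 and the call was lost (adjusted p = 0.131, limma). Neither *aanat1* nor *per1b* was called at 24 hpf on the scanner software's processed signals, in the value table of the authors, or with median centring in place of loess, where the ratio of *per1b* became 0.74. The second *per1b* probe, dim and left out of the tests, had ratios of −0.05 and −0.12 at 12 hpf and 0.03 and 0.08 at 24 hpf. The *per1b* call therefore rests on 1 probe.

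*per3* had ratios of 0.02 and 0.18 at 12 hpf and 0.11 and 0.34 at 24 hpf, above 0 on every array but spread widely. Its 24 hpf mean of 0.22 had a 95% interval of 0.05 to 0.39 and did not pass (adjusted p = 0.0664, limma). *per2* had 1 array on each side of 0 at both ages, with −0.13 and 0.03 at 12 hpf and −0.15 and 0.04 at 24 hpf. Its means of −0.05 and −0.06 had intervals of −0.22 to 0.11 at both ages.

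*bhlhe40* had ratios of 0.07 and 0.15 at 12 hpf and −0.18 and −0.13 at 24 hpf, above 0 on both younger and below 0 on both older arrays. Neither age passed (adjusted p = 0.242 and 0.108, limma), with intervals of −0.03 to 0.25 and −0.30 to −0.02. *bhlhe41* had ratios of 0.02 and −0.11 at 12 hpf and 0.03 and 0.20 at 24 hpf. Its means of −0.05 and 0.12 had intervals of −0.20 to 0.11 and −0.04 to 0.28. *nr1d2a* had ratios of −0.03 and 0.18 and then 0.06 and 0.08. At 12 hpf its probe was not well above background in either channel. It entered the tests through the morphants at 24 hpf alone, so these ratios are a description with no test.

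**Figure D3:**
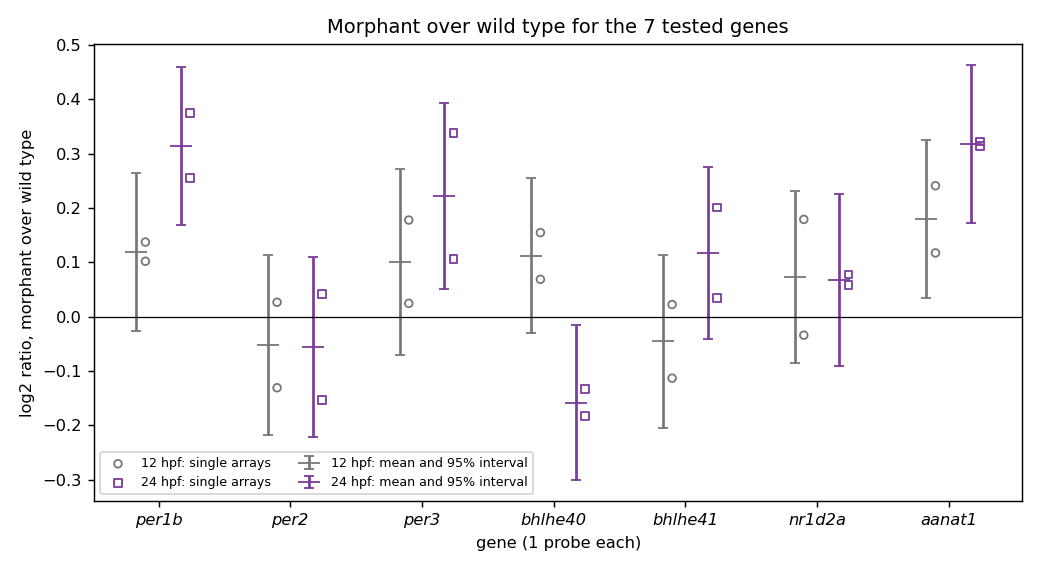
Log2 ratio of morphant over wild type (y axis) for the 7 tested genes (x axis) at 12 hpf (grey) and 24 hpf (purple). Open symbols are single arrays, dashes the means of 2 arrays, and error bars the 95% intervals of the fit. *aanat1* and *per1b* at 24 hpf have means of 0.32 and intervals that start at 0.17.

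The morphant effect was then compared between the ages in one fit. None of the 7 probes passed (0 of 7 by limma after adjustment, again counting *nr1d2a*), where 8.46% of all tested probes were called (3.11% higher, 5.35% lower). Without adjustment 1 of the 7 had a limma p under 0.05, where 7162 of the 28320 tested probes did. The 1 was *bhlhe40*, whose effect at 24 minus 12 hpf was −0.27 (95% interval −0.47 to −0.07, adjusted p = 0.0972, limma). The effect on *per1b* differed by 0.20 (95% interval −0.01 to 0.40) and that on *aanat1* by 0.14 (adjusted p = 0.38, limma), or by −0.52 on the processed signals, so the calls at 24 hpf are not shown to be particular to that age.

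Markers of other tissues were read beside the clock genes. Of 27 tested markers of embryonic tissues 4 were higher and 2 lower in the morphants at 12 hpf, where 23.3% of all genes were called, and 8 higher and 10 lower at 24 hpf, where 26.2% were. Their summed normalized intensity ranged from 251000 to 261000 in wild type and 259000 to 271000 in morphants at 12 hpf, and from 537000 to 595000 and 591000 to 612000 at 24 hpf. Between the ages in wild type 21 were higher and 5 lower, where 74.8% of all genes were called. Of 24 marker genes of pineal and photoreceptor cells, the cells known to hold Aanat, 17 were on the array and 10 were tested, of which 1 was higher and 0 lower at 12 hpf and 0 higher and 2 lower at 24 hpf. Their summed intensity ranged from 3550 to 3600 in wild type and 3760 to 3910 in morphants at 12 hpf, and from 7180 to 7460 and 6200 to 6670 at 24 hpf, where *aanat1* was higher in the morphants. *rcvrn2*, a recoverin of photoreceptors, and *rx1*, a homeobox factor of the eye, fell in the morphants at 24 hpf (−0.29 and −0.35, limma adjusted p 0.0208 and 0.00502), and *exorh*, the pineal opsin, was called higher at 12 hpf (0.24, adjusted p = 0.0319, limma). Both 24 hpf calls were lost without 24 hpf replicate 1, and that of *exorh* without either 12 hpf array. On processed signals *exorh* was 0.64 and *rcvrn2* −0.45, neither called. The probes of *exorh*, *rcvrn2* and *rx1* each had some spot that was not well above background, so these ratios rest partly on dim spots. The rod and cone markers *gnat1*, *gngt1*, *saga*, *sagb*, *grk7a* and *pde6ga*, and the factor *lhx4*, did not pass the detection filter. The part of either marker list in the values of the clock genes was not tested.

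The other 6 probes stayed below the filter. For *aanat2*, the pineal form of the enzyme, the Cy3 spots were 30, 32.5, 35 and 36 over local backgrounds of 25.5 to 31, and the Cy5 spots 48 to 53 over 44 to 47. It was not well above background in any of the 8 labelled samples, so no level or ratio is given. *clocka*, the partner of Bmal, had Cy3 spots of 36 to 47.5 over 30.5 to 34, never well above background, and Cy5 spots of 64 to 86 over 44 to 50. It passed in the morphant channel on 1 array of each age, and its log2 ratios over wild type were 0.34 and −0.05 at 12 hpf and 0.06 and 0.17 at 24 hpf. The 12 hpf arrays lay on opposite sides of 0, so no fold is given. *nr1d1*, the other Rev-erb gene, had Cy3 spots between 35 and 46 on one probe and between 36.5 and 41 on the other, and 1 of its 8 Cy5 spots was well above background. In wild type none of these transcripts was detectable at this signal over background, which is no measure of absence. In morphants *aanat2* was not detectable while *clocka* and *nr1d1* were on 2 and 1 arrays. The morphants were always in Cy5, where more probes were well above background than in Cy3 on every array. Dye and group therefore cannot be told apart in these detections.

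**Figure D4:**
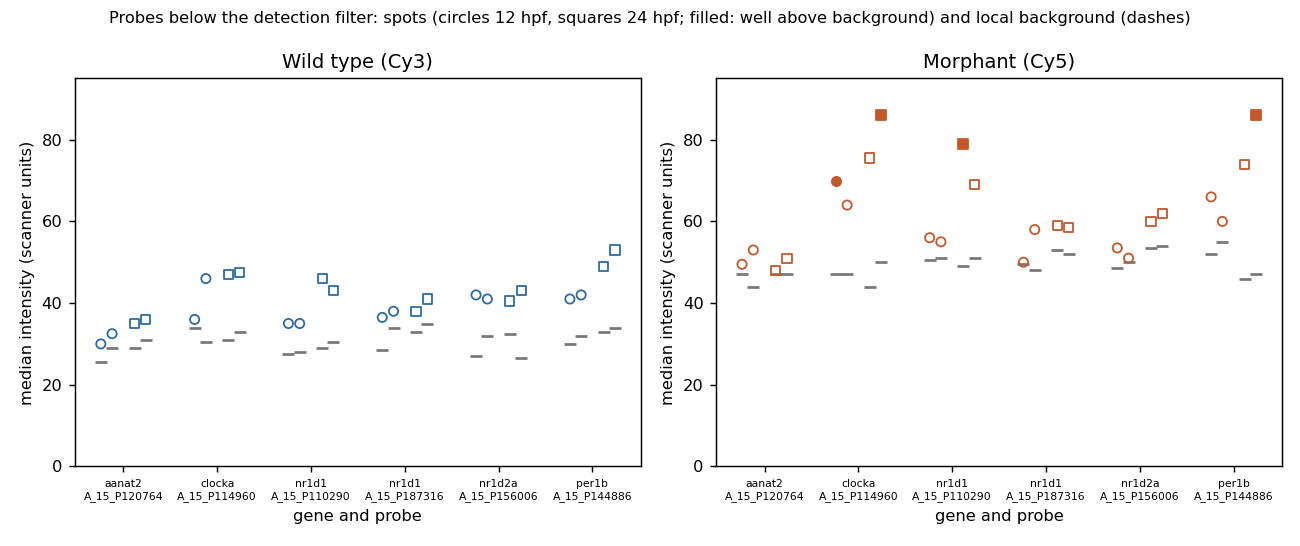
Median spot intensity in scanner units (y axes) of the 6 probes that were left out of the tests (x axes), for the wild-type channel (left) and the morphant channel (right). Circles are 12 hpf and squares 24 hpf arrays, filled where the spot was well above background, and dashes mark the local background. No wild-type spot is filled.

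Other genes of the clock and of melatonin synthesis were read from 8 lists, in which 52 further genes were tested. At 12 hpf 10 of the 52 were higher, 7 lower and 35 uncalled in the morphants, and at 24 hpf 8 were higher, 6 lower and 38 uncalled. Over all genes, each read by its brightest probe, 23.3% were called at 12 hpf (12.4% higher, 10.9% lower) and 26.2% at 24 hpf (12.1% higher, 14.1% lower). Of the 52 genes 32.7% and 26.9% were called. The counts of each list below stand beside the same shares of all genes. The median log2 ratio of the 52 genes was −0.01 at 12 hpf and 0.02 at 24 hpf. The effect differed between the ages for 6 of the 52, 3 in each direction, where 10.8% of all genes passed (4% up, 6.84% down). On the scanner software's processed signals *tph2*, *asmt2*, *fbxl3b*, *cry1b* and *hey2* kept their call at 12 hpf. None of the list genes named at 24 hpf kept it, with *tph2* the nearest (adjusted p = 0.0553, limma). Those signals called 2192 of all 28320 tested probes at 12 hpf and 15 at 24 hpf, against 6103 and 5973 in the main fit. The loss at 24 hpf is therefore shared by the array and is not particular to these genes. With median centring in place of loess *tph2*, *asmt2*, *hey2* and *cry1b* lost the 12 hpf call, and *fbxl3b* kept it, where 337 of all tested probes were called.

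The list of melatonin synthesis and receptors held 15 genes, of which 13 were on the array and 6 besides *aanat1* were tested: 1 was higher and 3 lower at 12 hpf, and 1 higher and 2 lower at 24 hpf. *tph2*, a tryptophan hydroxylase that makes the serotonin precursor in neurons, had log2 ratios of −0.99 and −1.26 at 12 hpf and −0.88 and −0.78 at 24 hpf. It was lower in the morphants on all 4 arrays, 2.18-fold at 12 hpf and 1.78-fold at 24 hpf (limma adjusted p 5.37e-05 and 0.000266). *asmt2*, an acetylserotonin methyltransferase of the last step, had ratios of 0.55 and 0.48 and then 0.51 and 0.40, higher on all 4 arrays (adjusted p 0.000771 and 0.00177, limma). *tph1b*, another tryptophan hydroxylase, fell at 12 hpf by 0.42 on the log2 scale (limma adjusted p 0.0127), while its 24 hpf ratios of 0.36 and −0.01 spread across 0. The difference between the ages passed for *tph1b* (0.59, adjusted p = 0.0276, limma) but not for *tph2* (0.29, adjusted p = 0.129, limma). That of *tph1b* kept its call in 6 of 14 alternative settings. Among those, processed signals, the deposited value table, median centring and background-subtracted signals with loess called 0 of all probes for this difference. No gene could keep such a call there. *asmtl* fell by 0.34 at 24 hpf (limma adjusted p 0.00967). Without 12 hpf replicate 1 *tph1b* lost its call (−0.30), its difference between ages was lost without that array or 24 hpf replicate 1 (0.48 and 0.40), and *asmtl* was lost without either 24 hpf array.

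Among the kinases and ubiquitin ligases that act on clock proteins, 1 of 15 was higher and 3 lower at 12 hpf, and 3 were higher and 3 lower at 24 hpf. *fbxl3b*, related to the F-box protein that marks cryptochromes for degradation in mammals, had ratios of 0.86 and 0.67 and then 0.65 and 0.72. It was higher on all 4 arrays, 1.70-fold at 12 hpf and 1.61-fold at 24 hpf (limma adjusted p 0.00016 and 0.000369), and the ages differed by −0.08 (adjusted p = 0.649, limma). *fbxw11a*, of the F-box family that targets phosphorylated period proteins in mammals, fell by 0.39 and 0.42. The kinase genes *gsk3aa* at 12 hpf and *gsk3ab* at 24 hpf fell by 0.34 and by 0.27. The call of *gsk3aa* was lost without 12 hpf replicate 1 and that of *gsk3ab* without either 24 hpf array.

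Among the cryptochromes and the other period gene, 2 of 6 were higher at 12 hpf and 1 at 24 hpf, with none lower. *cry1b*, a cryptochrome, had ratios of 0.29 and 0.40 at 12 hpf and −0.30 and −0.12 at 24 hpf. It was called at 12 hpf (0.34, adjusted p = 0.0085, limma), and the difference between the ages passed (−0.55, adjusted p = 0.0128, limma). On processed signals these values were 0.803 and −1.102, the second without a call, where 0 of all probes were called for the difference between ages. *cry2* rose at 12 hpf (0.26, adjusted p = 0.0195, limma). *per1a*, the paralog of *per1b*, was called at 24 hpf (0.24, adjusted p = 0.0475, limma), beside 0.32 for *per1b*, was 0.37 on processed signals, and was not called without either 24 hpf array. The 12 hpf call of *cry1b* was lost without 12 hpf replicate 2, that of *cry2* without either 12 hpf array, and the difference of *cry1b* without 24 hpf replicate 1 (−0.46).

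The activators of the loop gave 1 call in 5 at 12 hpf and 0 at 24 hpf by limma after adjustment. It was *bmal1b*, the partner of Clock, at 0.41 (adjusted p = 0.0155, limma), and 0.955 without a call on processed signals. Of the PAR bZIP factors, which act at D-boxes, and their antagonist *nfil3*, 3 of 5 were higher at 12 hpf and 1 at 24 hpf. *nfil3* was higher at both ages (0.37 and 0.41), and *tefa* and *tefb* at 12 hpf (0.29 and 0.22, the latter 0.56 on processed signals). Of the 4 other Rev-erb and Ror genes 1 was lower at each age, *rorca* at 12 hpf (−0.31, but −2.38 without a call on processed signals) and *rorab* at 24 hpf (−0.32). For *tefb* and *rorca* some wild-type or morphant spot was not well above background, so their ratios rest partly on dim spots. The relatives of the Dec genes gave *hey2*, a Notch target, at 12 hpf (0.49), and *helt* at 24 hpf (0.30). The light-induced repair and sensing genes gave 1 call in 8 at each age, the DNA glycosylase *neil1* at 12 hpf (0.30) and the heme oxygenase *hmox1a* at 24 hpf (0.34). Leaving out either array of the age ended the calls of *bmal1b*, *tefb*, *rorab*, *helt* and *neil1*. That of *nfil3* at 12 hpf and that of *rorca* were lost without 12 hpf replicate 1, that of *tefa* without 12 hpf replicate 2, and that of *hmox1a* without 24 hpf replicate 2.

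**Figure D5:**
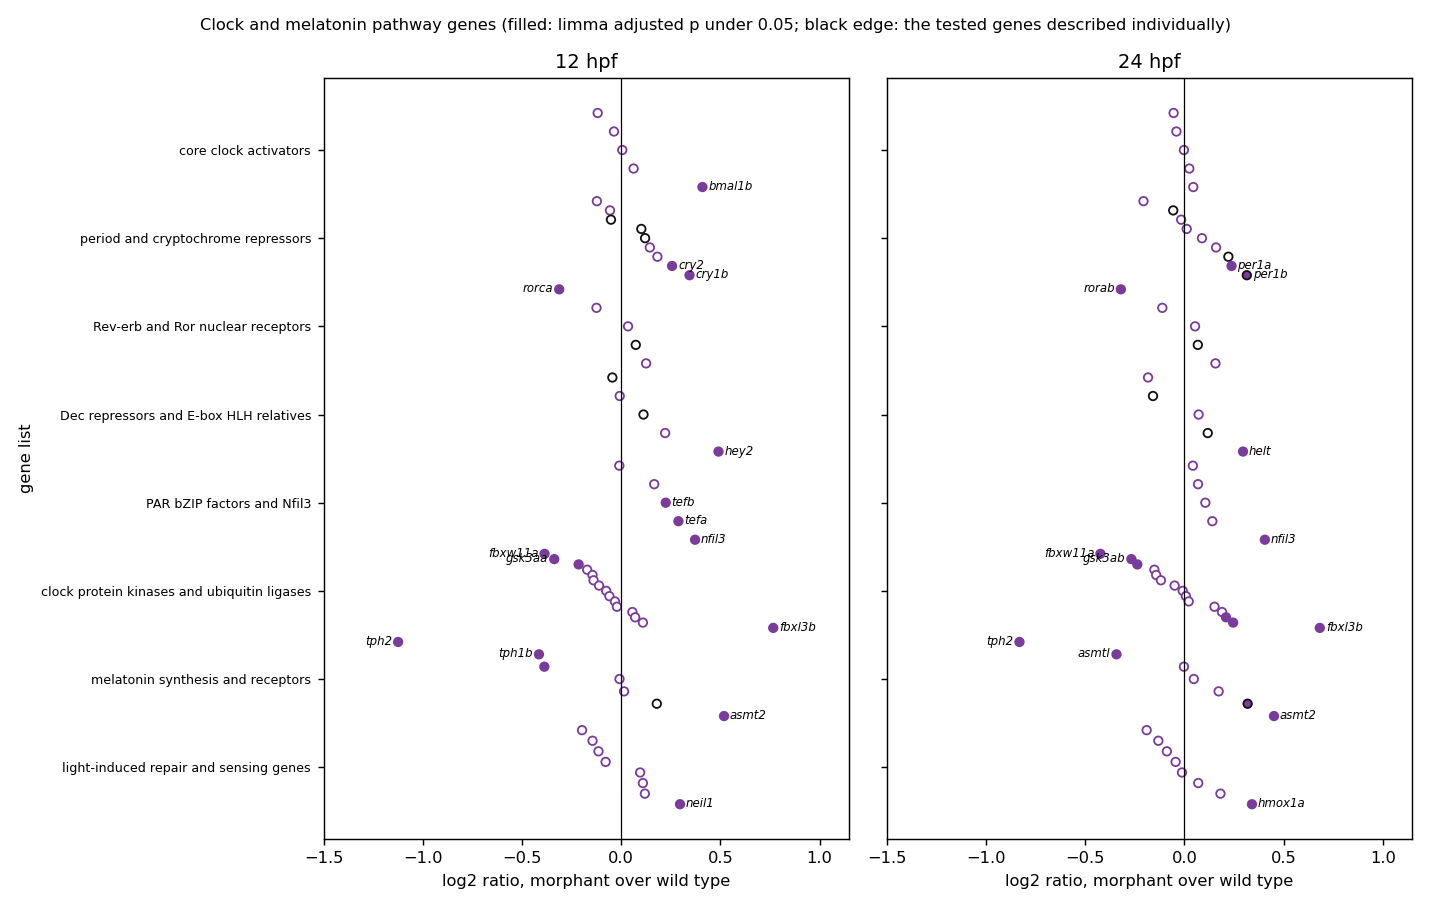
Log2 ratio of morphant over wild type (x axes) for each tested gene of the 8 lists (y axis) at 12 hpf (left) and 24 hpf (right). Filled points passed a limma adjusted p of 0.05, points with a black edge are the tested genes described one by one, and up to 3 called genes per list are named. *tph2* lies farthest to the left (−1.13 and −0.83) and *fbxl3b* farthest to the right (0.77 and 0.68).

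With age, 14 of the 52 genes rose, 23 fell and 15 were uncalled in wild type, where 74.8% of all genes passed (34.6% up, 40.2% down). In the morphants 12 rose, 22 fell and 18 were uncalled, where 77.2% of all genes passed (35% up, 42.2% down). The genes *usp2a*, *bmal1b* and *cry5* were chosen after their values were seen. *usp2a*, related to a deubiquitinase of clock proteins in mammals, had wild-type levels of 8.73 and 8.65 at 12 hpf and 11.73 and 11.85 at 24 hpf. It rose by 3.09, or 8.54-fold (limma adjusted p 8.59e-07), and by 3.42 in the morphants. *bmal1b* rose by 1.48 (limma adjusted p 5.28e-05), with 7.07 and 6.78 before and 8.41 and 8.40 after, and by 2.71 on processed signals. *cry5*, a photolyase that repairs DNA with light, fell by 1.65 (limma adjusted p 1.08e-05), with 8.92 and 8.79 before and 7.20 and 7.21 after. None of these wild-type groups overlapped, which is weak with 2 arrays per age, and the share of all genes without overlap was not counted.

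For each tested gene the most similar profiles were sought among 9575 named genes by Pearson correlation of normalized log2 levels over the 8 labelled samples. These samples share 4 arrays and fall into 2 ages, so a high value mainly reads the step between the ages. *bhlhe40* was most like *pcbp4* and *scrt2* (both 1.00 after rounding), *per1b* most like *cav4b* and *ak1* (both 1.00) and *bhlhe41* most like *bckdk* and *nabp1b* (1.00 and 0.999). Between 2001 and 2076 genes reached 0.95 with each of these 3, so many genes share such a profile. *per2* was most like *mindy1* and *cwc25* (0.994 and 0.992), and 1023 genes reached 0.95 with it. *aanat1* was most like *ndufa13* and *lcn15* (0.992 and 0.989), with 89 genes at 0.95 or more, and *nr1d2a* most like *actr3b* and *cacnb4b* (0.991 and 0.988), with 82. The *nr1d2a* probe entered the tests through the morphants at 24 hpf alone and was not well above background at 12 hpf. Its likeness therefore supports nothing on age or on shared regulation. *per3*, whose level did not pass in any comparison, was most like *pkp2* and *rdh1* (0.967 and 0.892), and 1 gene reached 0.95.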

How the data were processed

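Per the labels, total RNA was extracted with Trizol and 1 µg was labelled for 2-colour Agilent arrays. The scanner software was Agilent Feature Extraction 10.5.1.1, per the submitters' processing notes and the file headers. The deposited scanner tables give spot and local background intensity, not normalized, and a processed intensity that this software corrected for background and for dye. They also give, per the file headers, a log10 value for Cy5 over Cy3 with the p-value of the software's error model. The authors' deposited value table repeats these log10 values (largest difference from the scanner's 4.44e-16), which settles its scale and direction, and no further centring was found. The maker annotated the array on an older assembly, so no positions are given.

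Median spot and background intensities were used because the tables hold no mean spot signal. Background was corrected by normexp (offset 50) and ratios were normalized by loess within arrays, with 1417 control spots and 10 to 18 outlier spots per array at weight 0. No spot was saturated (0). Levels in 1 channel were also normalized between arrays (Aquantile). A fold at low intensity is compressed by the offset. A probe entered the tests when some channel had it well above background on both arrays of an age. Accessions of 16770 of 19210 probes matched a symbol in a RefSeq gene table. Limma 3.58.1 in R 4.3.3 was fitted over all 28320 probes, separately for ratios, Cy3 levels and Cy5 levels. Tests were two-sided, with Benjamini-Hochberg adjustment and a threshold of 0.05. The ratio fit had 2 residual and 7.5 prior degrees of freedom, and each level fit had its own prior. The ratio fit was tested on simulated data. All 4 arrays lie on 1 slide with 1 scan day. A gene in a list was read by its brightest probe. A bound on a fold compares the bright group's mean with, per array, the higher of the dim probe's signal and the lowest signal among probes well above background.

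Every probe of the 10 genes is named. From each pathway list and the pineal list, at each age, up to 3 genes with the largest ratio past the threshold and the same sign on both arrays are named, with the targeted gene and the 2 most similar profiles. Markers of embryonic tissues are given by their counts. Of 153 list entries 1 had no match. Members and lists were chosen with earlier results of these data known. The p-values rest on the spread between the 2 arrays per age, shared over both ages and moderated by the spread of all tested probes. Alternatives covered the offset, background subtraction, scanner-processed and deposited ratios, median centring, quantile normalization of 1 channel, the detection filter, robust moderation, the mean of a gene's probes, each array left out, and the replicate number as a block.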

Additional observations from a re-analysis of the deposited data

Results flagged for a closer look

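*bhlhe40* had opposite signs at the 2 ages on all 4 arrays, with morphant over wild-type log2 ratios of 0.07 and 0.15 at 12 hpf and −0.18 and −0.13 at 24 hpf. The difference between the ages was tested in limma and was −0.27 (adjusted p = 0.0972), which did not pass.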

How the results depend on the processing

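At 24 hpf the count of called clock and melatonin probes, 2 of 7, became 0 with the scanner software's processed signals (*aanat1* 0.465 and *per1b* 0.353, adjusted p 0.21 and 0.0927), 0 with the deposited value table, 0 with median centring and 0 with the software's background-subtracted signals and loess, an alternative chosen after seeing the data. Those settings called 15, 100, 1 and 0 of all probes at 24 hpf, against 5973. It was 1 when detection was asked of both channels on all 4 arrays, which *aanat1* does not pass, and ranged from 0 (without 24 hpf replicate 2) to 2 with an array left out. At 12 hpf the count of 0 became 1 with an offset of 10 and 1 with no background subtraction, where 4621 and 6552 of all 28320 tested probes were called. With the replicate block the counts were 0 at 12 hpf and 3 at 24 hpf, with *per3* (0.222, adjusted p = 0.046, limma) added. They were 0 for the difference between ages and 6 for each change with age. Of all probes the block fit called 5919 at 12 hpf, 5761 at 24 hpf and 2439 for the difference. With age it called 18545 in wild type and 20056 in morphants. The replicate numbers are not known to pair samples, whose same-numbered deviations correlated at −0.041 (ratios), −0.137 (Cy3) and −0.081 (Cy5). Leaving out arrays gave 0 calls at 12 hpf and for the difference between ages, 4 to 6 for wild type and 5 to 6 for morphants with age. Under every setting run the change with age in wild type stayed between 4.035 and 4.557 for *per1b*, 2.514 and 2.8 for *bhlhe40*, and −2.873 and −2.029 for *bhlhe41*. Offset and background moved dim genes: the rise of *aanat1* was 0.591 with no background subtraction, the difference of *nr1d2a* 0.658 with an offset of 10 and 2.055 on processed signals, and in morphants those processed values were 1.393 and 2.708. *per3* passed with age in morphants on processed signals (0.328, adjusted p = 0.0491). When probes of a gene were averaged, the light-induced list had 2 calls in place of 1 at 24 hpf, the PAR bZIP list 2 in place of 3 at 12 hpf, and the kinases and ligases 3 in place of 4 at 12 hpf and 4 in place of 6 at 24 hpf, with the other list counts unchanged. Signs turned for uncalled values. At 12 hpf *nr1d2a* was −0.074 (processed), 0 (deposited), −0.084 (median centring), −0.703 (background-subtracted) and −0.034 to 0.179 with an array left out. There *per2* was 0.083 (median centring) and −0.131 to 0.027 with an array left out, and *bhlhe41* 0.254 and −0.113 to 0.023. At 24 hpf median centring gave *bhlhe40* 0.275, *nr1d2a* −0.04 and *per2* 0.01, and *per2* was −0.153 to 0.041 with an array left out. For the difference between ages *per2* was 0.003 (offset 10) and −0.101 to 0.093 with an array left out. There *nr1d2a* was 0.081 (no background subtraction), 0.653 (processed), 0.579 (deposited), 0.045 (median centring), 1.237 (background-subtracted) and −0.111 to 0.102 with an array left out, *aanat1* was −0.517 (processed), −0.517 (deposited) and −0.511 (background-subtracted), and *bhlhe41* −0.05 (median centring). With age *per3* was 0.111 (processed) and −0.198 to 0.076 with an array left out in wild type, and −0.021 to 0.141 in morphants. Median centring, which moved the median of all genes to 0.283 at 12 hpf and 0.246 at 24 hpf, turned *badb* (0.137), *fbxw11a* (0.057) and *gsk3aa* (0.016) at 12 hpf and *asmtl* (0.015) and *gsk3ab* (0.278) at 24 hpf. *fbxl3b* between ages ranged from −0.175 to 0.009 with an array left out. For the difference between ages the processed, deposited, median-centred and background-subtracted values called 0 of all probes, so no call could be kept there. Of 585 other values of named list genes and *badb* over all settings, 411 kept their side of the threshold, 168 lost the call and 6 turned. The cause of these changes was not tested.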
